A study of Mus musculus with 4 samples.

Results

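The 6 messenger RNAs (mRNAs) of the mouse mitochondrial genome that code for subunits of respiratory complexes III, IV and V were examined in 4 RNA sequencing libraries of skeletal muscle. The members, mt-Co1, mt-Co2, mt-Co3, mt-Atp6, mt-Atp8 and mt-Cytb, were chosen by gene symbol. They are 6 of the 13 mRNAs and of the 37 genes of the mitochondrial genome in a table of 16472 genes. The other 7 mRNAs code for complex I and serve as the comparison. All 4 libraries came from muscle of mice labelled WT. The samples labelled SM-mito (n = 2) are isolated mitochondria, and those titled SM-total (n = 2) carry the treatment label tissue minus mitochondria and are called remaining tissue here. The study describes the same group as total lysates of skeletal muscle. Whether it was whole muscle or muscle depleted of mitochondria is therefore not settled, and each fold below is against one or the other. The age of the mice, the muscle and the number of animals behind the libraries are not given in the sources used here, and p-values therefore measure only the spread between these libraries, which may be technical. Libraries of isolated mitochondria were fragmented for 1 min, a setting made for these samples, so fragmentation and group cannot be told apart. The study's protocol for isolating mitochondria, described for heart, also included digitonin and RNase A before RNA extraction. No such step is described for the other fraction, so it cannot be told apart from group either.

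The mitochondrial genome is a small circle that is transcribed as long polycistronic RNAs, from which mRNAs are released, mostly by excision of the tRNAs that lie between them. Its products are hydrophobic core subunits, which are joined in the inner membrane by subunits made in the cytosol from nuclear genes. Cytochrome b (mt-Cytb) carries electrons within complex III. Cytochrome c oxidase subunits 1, 2 and 3 (mt-Co1, mt-Co2, mt-Co3) form the core of complex IV, which reduces oxygen. mt-Atp6 codes for the subunit of the ATP synthase (complex V) through which protons pass, and mt-Atp8 for a small subunit of the same membrane part. Skeletal muscle has a high demand for ATP and is rich in these complexes.

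On build GRCm38 with GENCODE M21, each of the 6 members is a single exon on the plus strand: mt-Co1 at chrM:5328-6872, mt-Co2 at chrM:7013-7696, mt-Atp8 at chrM:7766-7969, mt-Atp6 at chrM:7927-8607, mt-Co3 at chrM:8607-9390 and mt-Cytb at chrM:14145-15288. All 6 open with ATG. The annotated mt-Co1, mt-Co2, mt-Atp8 and mt-Atp6 end in TAA, whereas mt-Co3 and mt-Cytb end in a lone T, the kind of end that is completed to a stop codon by the poly(A) tail. Lengths ran from 204 nt for mt-Atp8 to 1545 nt for mt-Co1, and GC content from 31.9% for mt-Atp8 to 39.9% for mt-Co1. mt-Atp8 and mt-Atp6 are read from the same bicistronic mRNA in different frames. They share 43 nt, given in capitals in the sequences below, and no tRNA separates mt-Atp6 from mt-Co3, which share 1 base, also in capitals. These sequences are shown because they decide which reads can be counted for mt-Atp8. They run 5′ to 3′ on the plus strand and were read from the GENCODE transcripts, with mt-Atp8 at chrM:7766-7969, the start of mt-Atp6 at chrM:7927-8001 and the junction at chrM:8577-8637.
mt-Atp8: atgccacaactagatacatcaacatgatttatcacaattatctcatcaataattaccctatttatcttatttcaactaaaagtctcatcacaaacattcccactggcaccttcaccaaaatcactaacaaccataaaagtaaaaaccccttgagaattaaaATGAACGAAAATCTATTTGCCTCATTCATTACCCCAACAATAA
mt-Atp6, first 75 nt: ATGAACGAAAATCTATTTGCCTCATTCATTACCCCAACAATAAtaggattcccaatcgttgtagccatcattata
mt-Atp6/mt-Co3 junction: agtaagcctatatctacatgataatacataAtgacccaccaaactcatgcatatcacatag

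Reads were sequenced at 75 nt and counted per gene, and reads that overlap several genes were stated to have been left out. The study trimmed reads before alignment, so some may be shorter, and their lengths are not given. Values per countable position take all reads as 75 nt unless stated otherwise. A read of 75 nt can start at 88 positions at which it touches mt-Atp8 and no other annotated gene. The same number was 563 for mt-Atp6, 614 for mt-Co2, 709 for mt-Co3, 1075 for mt-Cytb and 1469 for mt-Co1. With genes on the other strand ignored it was 1614 for mt-Co1 and 1144 for mt-Cytb, and it was the same for the other 4 members. Whether the counting used strand was not stated. mt-Atp8 was thus the member with the fewest countable positions, and its count is read below together with that of mt-Atp6.

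Nuclear copies of mitochondrial DNA add a limit of another kind. At a minimum of 95% identity over 100 nt, the transcripts of 6 annotated genes matched a member, and 5 more matched complex I mRNAs. On chromosome 1, Gm10925 (chr1:24613974-24614651, minus strand) was identical to mt-Atp6 over 678 nt, Gm28437 to mt-Co3 over 783 nt and Gm28661 to mt-Co2 over 681 nt. Gm29216, also on chromosome 1, differed from the last 483 nt of mt-Co1 by 1 base. The copies on chromosome 2 were less alike: Gm13340 differed from mt-Co1 at 37 of 1545 bases and Gm13341 from mt-Co2 at 16 of 672 aligned bases. Of the 75-nt stretches of each member, 604 of 607 in mt-Atp6, 607 of 610 in mt-Co2, 709 of 710 in mt-Co3 and 586 of 1471 in mt-Co1 also occurred in the transcript of another gene. No such stretch of mt-Atp8 (0 of 130) or mt-Cytb (0 of 1070) did. Between the annotated ends of Gm10925 and Gm28661 lie 233 bases of chromosome 1. The same number of bases separates the matching ends on the mitochondrial genome. These hold mt-Atp8 apart from the 43 nt it shares with mt-Atp6, which Gm10925 also holds. Whether another annotated gene lies in that stretch of chromosome 1 was not examined, and the genome sequence there was not used here. The window of mt-Co2 with most differences from Gm13341 (chrM:7460-7534) is given below with both copies, as transcribed, to show what a read of this length can and cannot tell apart; capitals mark the bases that differ from mt-Co2.
mt-Co2: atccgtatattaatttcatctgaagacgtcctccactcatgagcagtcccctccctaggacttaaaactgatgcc
Gm28661: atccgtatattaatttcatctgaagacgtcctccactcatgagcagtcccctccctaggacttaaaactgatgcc
Gm13341: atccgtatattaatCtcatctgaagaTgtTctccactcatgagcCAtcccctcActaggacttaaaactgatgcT
In this window Gm28661 had 0 and Gm13341 had 7 differences from mt-Co2. The primers that the study lists for ATP6, aataggattcccaatcgttgtagc (positions 42 to 65 of mt-Atp6) and tcgtccttttggtgtgtggattagc (the reverse complement of positions 174 to 198), matched mt-Atp6 and Gm10925 alike.

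The deposited values are gene counts divided by a size factor per library and are called normalized counts. Depth, estimated for remaining tissue and recovered for isolated mitochondria, ran from 15300272 to 42750358 reads per library. The 13 mRNAs took 3.94% to 4.20% of counts in remaining tissue and 13.01% to 16.1% in isolated mitochondria. The 5 markers of skeletal muscle summed to 200443 and 211810 normalized counts in remaining tissue, with Myh4, the myosin of the fastest fibres, first among them, and to 34739 and 32909 in isolated mitochondria, where 4 of the 5 were called lower (limma). All 3 fibroblast markers (Col1a1, Col3a1, Dcn) were higher in isolated mitochondria, with sums of 1131 and 1248 normalized counts in remaining tissue against 7528 and 14277, but were called lower with libraries scaled to the total of all genes. The 2 macrophage markers tested of 3 were higher as well (sums over all 3 of 33 and 40 against 289 and 278) and turned to lower under the same scaling. In isolated mitochondria they rested on few reads, 23 and 37 for Csf1r and 4 and 14 for Adgre1. Adgre1, with 6 and 6 normalized counts in remaining tissue, reached the mean of 20 needed for testing only through isolated mitochondria. Of the 3 endothelial markers 1 was lower by limma and 2 did not pass, whereas edgeR and DESeq2 each called all 3 lower. Their reads in isolated mitochondria were 4 and 4 for Cdh5, 2 and 8 for Kdr, and 0 and 4 for Pecam1. The 2 nuclear RNA markers, Malat1 and Neat1, did not pass by limma (adjusted p = 0.058 and 0.074) and were both called lower by edgeR and DESeq2. The 2 adipocyte markers tested of 3 and the 1 erythroid marker tested of 2 were not called by any of these 3 tools. With libraries scaled to the total of all genes they were called lower. The 2 Schwann markers were too low to be tested. The part of these cells in the results below was not tested. Isolated mitochondria are an organelle fraction, so marker counts in them do not measure numbers of cells. In bulk samples, fewer cells of a type and less RNA per cell cannot be told apart.

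To ask how far the members rose with the isolation of mitochondria, their normalized counts were compared between the groups, beginning with complex IV. mt-Co1, the catalytic subunit of complex IV and the most counted of the 6, had 25192 and 21953 in the 2 libraries of remaining tissue, replicate 1 given first here and below, and 14214765 and 8354428 in those of isolated mitochondria. mt-Co2, which takes up electrons from cytochrome c, had 2848 and 2831 against 1828161 and 998993. mt-Co3, which contacts the catalytic subunit, had 3415 and 3297 against 2224552 and 1196289. In each of the complex IV mRNAs both libraries of isolated mitochondria stood far above both libraries of remaining tissue. Replicate 1 was the higher of the 2 in normalized counts, of which 1 read was worth 9.049 in replicate 1 and 5.059 in replicate 2. In recovered reads the ratio of replicate 1 to 2 was 0.951 for mt-Co1, 1.02 for mt-Co2 and 1.04 for mt-Co3. In complex V, mt-Atp6 had 8573 and 7182 against 4683857 and 2704346. Its partner mt-Atp8 had the lowest values of the 6, 605 and 676 against 623841 and 230615. mt-Cytb of complex III had 12037 and 11634 against 6358180 and 3815298. The groups did not overlap for any member; the lower library of isolated mitochondria exceeded the higher library of remaining tissue by 315-fold (mt-Atp6) to 351-fold (mt-Co2). In the plot of normalized counts by library, the 7 complex I mRNAs are apart by a like distance.

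**Figure D1:**
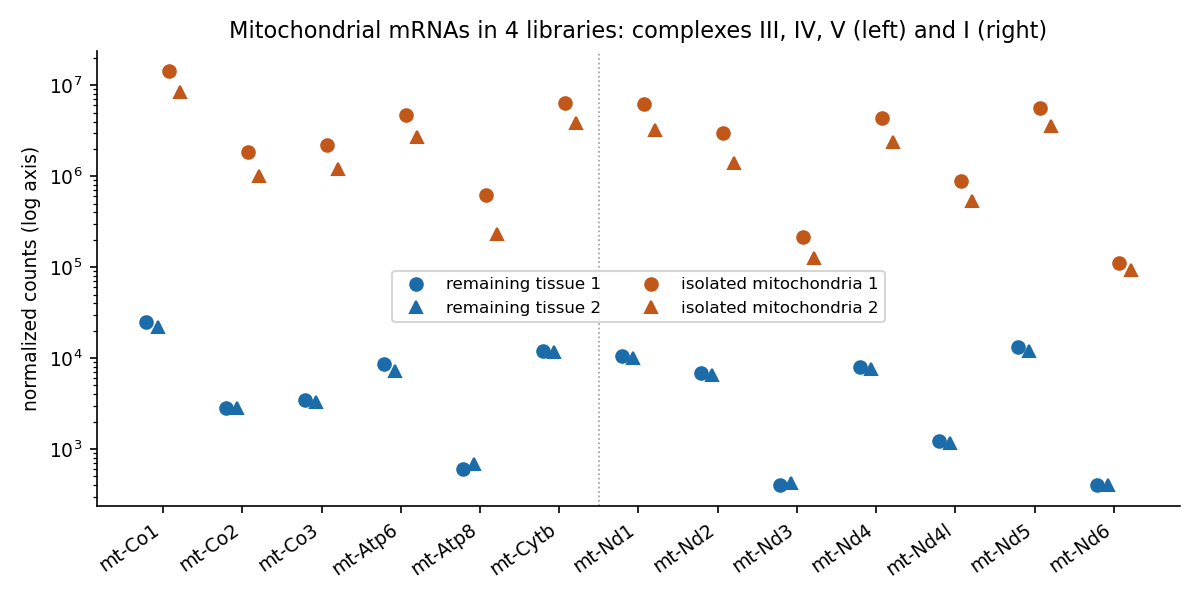
Normalized counts (log axis) of the 6 members, left of the dotted line, and of the 7 complex I mRNAs, right of it, in each of the 4 libraries; each point is 1 library (blue, remaining tissue; orange, isolated mitochondria; circles, replicate 1; triangles, replicate 2). The members lie between 605 and 25192 in remaining tissue and between 230615 and 14214765 in isolated mitochondria, and no pair of groups overlaps.

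All 6 members were higher in isolated mitochondria, by log2 changes of 8.70 (mt-Cytb) to 9.21 (mt-Atp8), against a median of −0.44 over all 6916 genes tested. The test was limma on log2(normalized count + 1), two-sided, with Benjamini-Hochberg adjustment over all genes tested and a threshold of 0.05. mt-Co1 changed by 8.86 ± 0.42 (SE, adjusted p = 0.0036), mt-Co2 by 8.89 ± 0.37 (adjusted p = 0.0032) and mt-Co3 by 8.92 ± 0.38 (adjusted p = 0.0032). mt-Atp6 changed by 8.82 ± 0.38 (adjusted p = 0.0032), mt-Atp8 by 9.21 ± 0.53 (adjusted p = 0.0062) and mt-Cytb by 8.70 ± 0.38 (adjusted p = 0.0032). Summed to 1 value per library, the mt-Atp8/mt-Atp6 pair had 9178 and 7858 against 5307698 and 2934961, a change of 8.86 ± 0.40 (adjusted p = 0.0031). Of all genes tested, 7.32% were called higher (506) and 9.30% lower (643), and 25.5% were higher without overlap of the groups. All 7 complex I mRNAs and both mitochondrial rRNAs were called higher too, with median changes of 8.63 and 9.13. By size of change, the members held places 3 (mt-Atp8) to 21 (mt-Cytb) among the genes tested. The size factors follow the median gene, which is nuclear. With libraries scaled to the total of all genes the median of all genes moved to −6.90 and the members to 1.80 to 2.31, still all called higher; relative to that median they stood 8.70 to 9.21 above it, against 9.14 to 9.65 with the deposited scaling. The number of genes called higher ran from 304 without remaining tissue replicate 1 to 1686 without isolated mitochondria replicate 1 (316 and 1642 without the other replicate of each), and of genes called lower from 159 to 3181 (176 without remaining tissue replicate 2 and 2837 without isolated mitochondria replicate 1), while all 6 members were called higher without any of the 4 libraries.

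Since the rise was shared by all mitochondrial mRNAs, the composition of the mRNA pool was examined next, as the share of counts on the 13 mRNAs. The 6 members together took 56.3% and 55.6% in remaining tissue and 59.5% and 60.3% in isolated mitochondria, a difference of 3.91 percentage points. mt-Co1 alone took 26.9% and 25.7% against 28.2% and 29.1%. mt-Co2 took 3.05% and 3.31% against 3.63% and 3.48%, and mt-Co3 3.65% and 3.85% against 4.42% and 4.17%. In the complex IV mRNAs each share of counts was thus higher in both libraries of isolated mitochondria. The share of mt-Atp6 was 9.17% and 8.39% against 9.31% and 9.42%, so that the nearest libraries of the 2 groups were close. mt-Atp8 took 0.647% and 0.790% against 1.24% and 0.803%, where the second library of isolated mitochondria was just above remaining tissue. For mt-Cytb the groups overlapped, with 12.9% and 13.6% against 12.6% and 13.3%. Hence 5 of the 6 members had shares of counts that were higher without overlap, a number that rested on how counts were weighted. It was 5 with the counts of nuclear copies added, 3 per kilobase of mRNA (mt-Co2, mt-Co3 and mt-Atp8) and 2 per countable position with copies added (mt-Co2 and mt-Co3), where mt-Cytb was lower without overlap. Among all 37 mitochondrial genes it was 0, and mt-Atp6 and mt-Cytb were lower without overlap. For mt-Co1 the share per countable position with copies was 16.0% and 15.4% against 15.4% and 16.2%, a difference of 0.059 percentage points beside 2.38 in counts, and per kilobase it was 18.6% and 17.5% against 18.5% and 19.6%. After scaling to the 13 mRNAs, 0.347% of all genes tested were higher without overlap and 98.5% were lower, since nearly all nuclear genes were low beside mitochondrial mRNAs. Of the complex I mRNAs, mt-Nd4l was higher without overlap (1.32% and 1.38% against 1.76% and 1.87%). mt-Nd2 (7.40% and 7.55% against 5.96% and 4.91%), mt-Nd5 (14.1% and 14.2% against 11.1% and 12.5%) and mt-Nd6 (0.428% and 0.471% against 0.220% and 0.324%) were lower.

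The precision of these shares was set by the spread between libraries and not by depth. The 13 mRNAs held 603108 to 5673311 reads per library, and the 95% Wilson interval of the share of mt-Co1 was, for example, 28.21 to 28.28% in isolated mitochondria replicate 1. For 6 of 6 members the intervals of the replicates did not overlap in either group. Intervals cover counting error only and hold no spread between libraries. They may be too narrow even for that, because PCR copies of a molecule cannot be recognised without molecular identifiers. In remaining tissue the reads behind the intervals were estimated with 1 factor common to both libraries. Shares were not tested by permutation, since the smallest two-sided p that 2 libraries against 2 allow is 0.333.

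**Figure D2:**
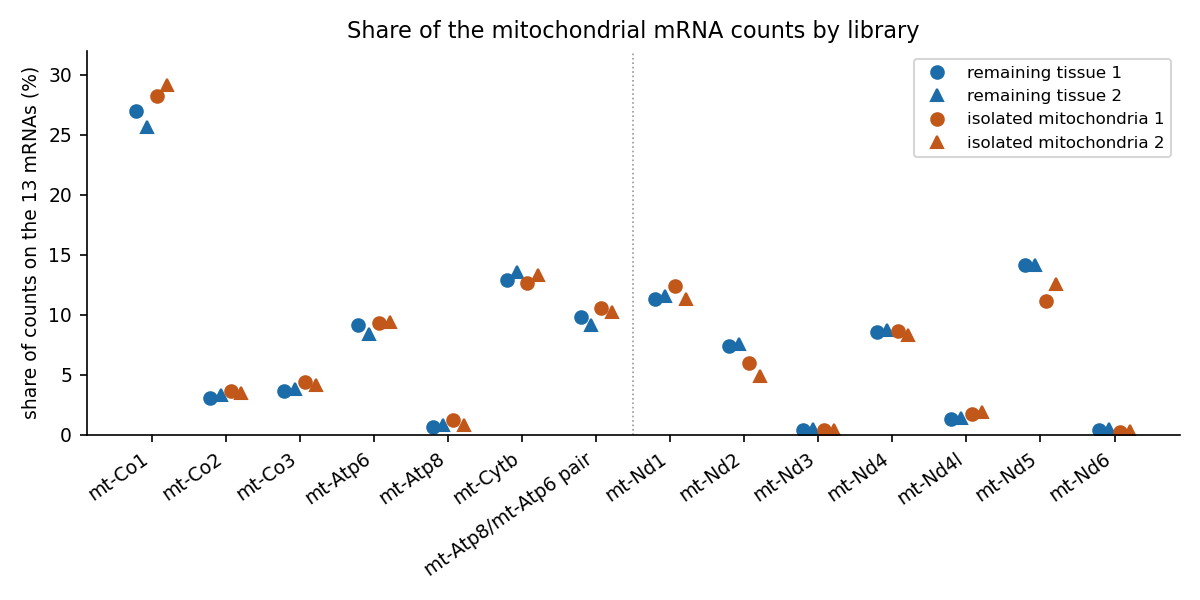
Share of the counts on the 13 mitochondrial mRNAs (%) by library for the 6 members and the mt-Atp8/mt-Atp6 pair, left of the dotted line, and for the complex I mRNAs, right of it; each point is 1 library. mt-Co1 holds between 25.7% and 29.1%, mt-Cytb overlaps between the groups, and mt-Nd2 and mt-Nd5 are lower in isolated mitochondria.

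The difference in composition was tested with limma after each library had been scaled to the same total of the 13 mRNAs. None of the 6 members passed the threshold in the fit as designed. On the log2 scale mt-Co1 differed by 0.13 (95% interval −0.014 to 0.26, adjusted p = 0.071), mt-Co2 by 0.16 (−0.17 to 0.49, adjusted p = 0.27) and mt-Co3 by 0.19 (−0.11 to 0.50, adjusted p = 0.17). mt-Atp6 differed by 0.094 (−0.14 to 0.32, adjusted p = 0.35), mt-Atp8 by 0.48 (−0.27 to 1.23, adjusted p = 0.16) and mt-Cytb by −0.030 (−0.22 to 0.16, adjusted p = 0.72). No member passed at an unadjusted p under 0.05 either (0 of 6), nor in edgeR's quasi-likelihood test (0 of 6), and the intervals leave room for differences in either direction, up to 1.23 on the log2 scale for mt-Atp8. Of all genes 0.101% were called higher in this fit and 98.1% lower, so adjusted p-values were close to the raw ones. mt-Co1 passed without remaining tissue replicate 1 (0.16, adjusted p = 0.017), with no filter on low values (adjusted p = 0.023) and with the replicate number as a block (adjusted p = 0.0098), and was at 0.077 with the copies added (adjusted p = 0.25). mt-Atp8 passed without isolated mitochondria replicate 2 (0.79, adjusted p = 0.0071) and was at 0.17 without replicate 1 (adjusted p = 0.34). Among the complex I mRNAs mt-Nd2 (−0.47, adjusted p = 0.014) and mt-Nd5 (−0.26, adjusted p = 0.030) were called lower and mt-Nd4l higher at the edge of the threshold (0.43, adjusted p = 0.0499). Without isolated mitochondria replicate 2, mt-Nd2 was at −0.33 (adjusted p = 0.15) and mt-Nd5 at −0.35 (adjusted p = 0.20); without replicate 1, mt-Nd5 was at −0.17 (adjusted p = 0.55). mt-Nd4l missed the threshold without remaining tissue replicate 1 (adjusted p = 0.24) or replicate 2 (adjusted p = 0.17). By edgeR none of these complex I mRNAs was called (adjusted p = 0.11 for mt-Nd2, 0.27 for mt-Nd5 and 0.21 for mt-Nd4l). The sign of the members' differences depended on the denominator: against all 37 mitochondrial genes, whose counts come mostly from the rRNAs, mt-Co1, mt-Co2, mt-Co3, mt-Atp6 and the pair turned to −0.12 to −0.22, and none of these was called.

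**Figure D3:**
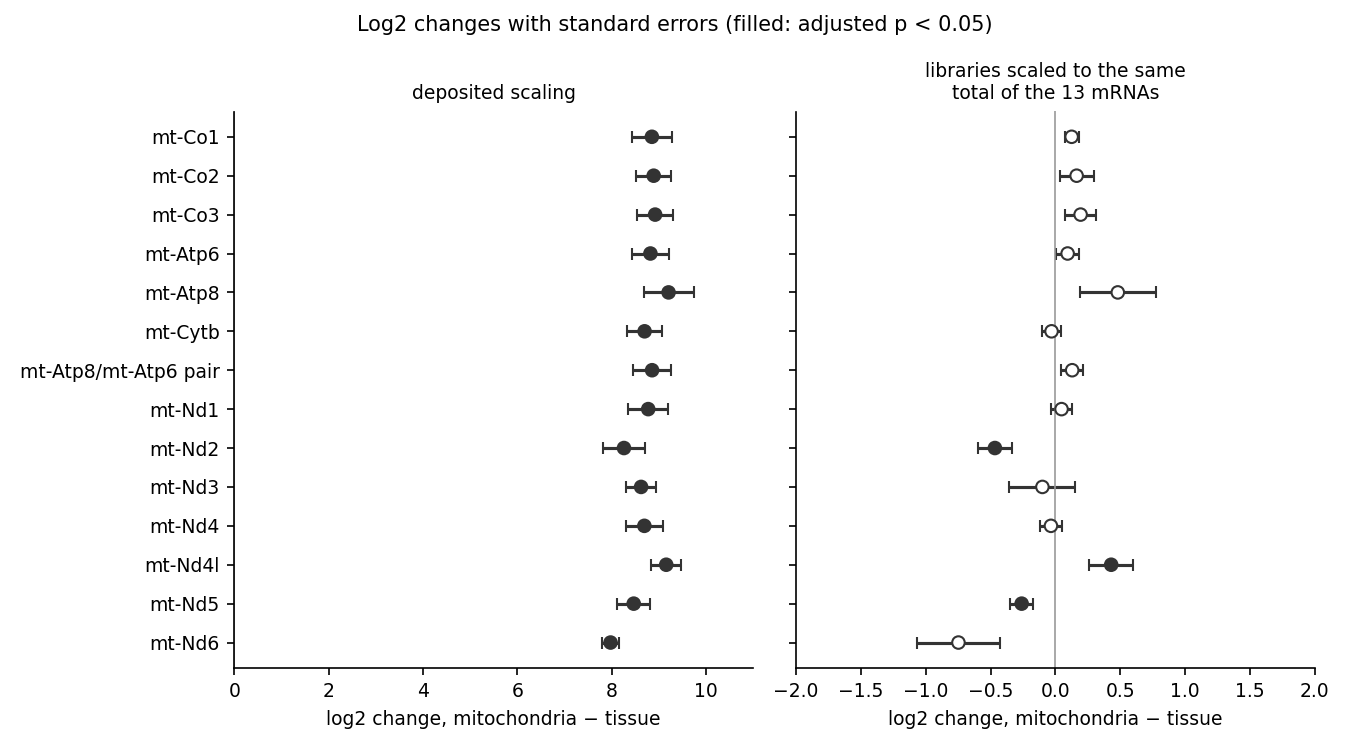
Log2 change of isolated mitochondria minus remaining tissue with its standard error (limma) for the 6 members, the pair and the 7 complex I mRNAs, with the deposited scaling (left) and with libraries scaled to the same total of the 13 mRNAs (right); filled points have an adjusted p under 0.05. On the left the members lie between 8.70 and 9.21, and on the right all 6 are open.

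Read together, the bicistronic pair took 9.82% and 9.18% of the mRNA counts in remaining tissue and 10.55% and 10.2% in isolated mitochondria. Its difference relative to the 13 mRNAs was 0.13 (95% interval −0.083 to 0.34, adjusted p = 0.18). Within the pair the counts were uneven. The ratio of mt-Atp6 to mt-Atp8 counts was 14.2 and 10.6 in remaining tissue and 7.51 and 11.7 in isolated mitochondria, so the groups overlapped. Per countable read position, with all reads taken as untrimmed, the ratio was 2.21 and 1.66 against 1.17 and 1.83. With the counts of Gm10925 added to mt-Atp6, the ratio per position was 4.61 and 3.44 against 2.49 and 3.84. Counts of the 233 bases of chromosome 1 between Gm10925 and Gm28661 were not added to mt-Atp8, so this last ratio is not like for like. In remaining tissue the ratio of replicate 1 to 2 in normalized counts was 0.895 for mt-Atp8 and 1.19 for mt-Atp6. Only in isolated mitochondria did mt-Atp8 differ more between replicates than mt-Atp6. In recovered reads, isolated mitochondria replicates 1 and 2 held 68942 and 45584 for mt-Atp8, a ratio of 1.51, whereas the other 5 members had ratios of 0.932 to 1.04. mt-Atp6 held 517624 and 534549 reads in the same libraries.

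The division of counts between mRNAs and nuclear copies was nearly the same in all 4 libraries. For mt-Co3 and its identical copy Gm28437, the mRNA held 49.9% and 49.8% of their joint counts in remaining tissue and 49.8% in both libraries of isolated mitochondria. For mt-Co2 and Gm28661 the mRNA held 49.1% and 49.5% against 49.1% and 49.3%. For mt-Atp6 and Gm10925 it held 48.1% and 48.3% against 47.2% and 47.8%, with 9268 and 7692 normalized counts on Gm10925 in remaining tissue and 5235615 and 2958637 in isolated mitochondria. Counts were thus divided almost evenly where an identical copy spans nearly the whole mRNA. Gm28439, which is identical to mt-Nd4 but spans 876 of its 1378 nt, left 76.1% to 78.4% on the mRNA. Gm29216, with 1 difference over 483 of the 1545 nt of mt-Co1, left 80.5% to 81.9%. Against the less alike copies that span nearly the whole mRNA, the mRNA held 81.3% to 82.8% (Gm13341) and 88.5% to 90.7% (Gm13340). Each share above is within a pair and leaves out any other copy of the same mRNA. mt-Co1 is matched by both Gm29216 and Gm13340, and mt-Co2 by both Gm28661 and Gm13341. The shares of these pairs are thus not like for like with those of mRNAs that have 1 copy. Reads that align to several places were stated to have been left out, whereas identical stretches held counts on both genes. The copies together held 31.9% to 33.0% of the joint counts of the 6 members and their copies. With these counts added to the mRNAs they match, the share of the 6 members among the 13 mRNAs was 63.0% and 62.4% in remaining tissue and 66.1% and 66.4% in isolated mitochondria. All 6 members stayed called higher with the copies added (limma, highest adjusted p = 0.0076). Their median log2 change was 8.872, against 8.875 without the copies. The lowest and highest changes, 8.70 for mt-Cytb and 9.21 for mt-Atp8, could not move, since no counts were added to either.

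**Figure D4:**
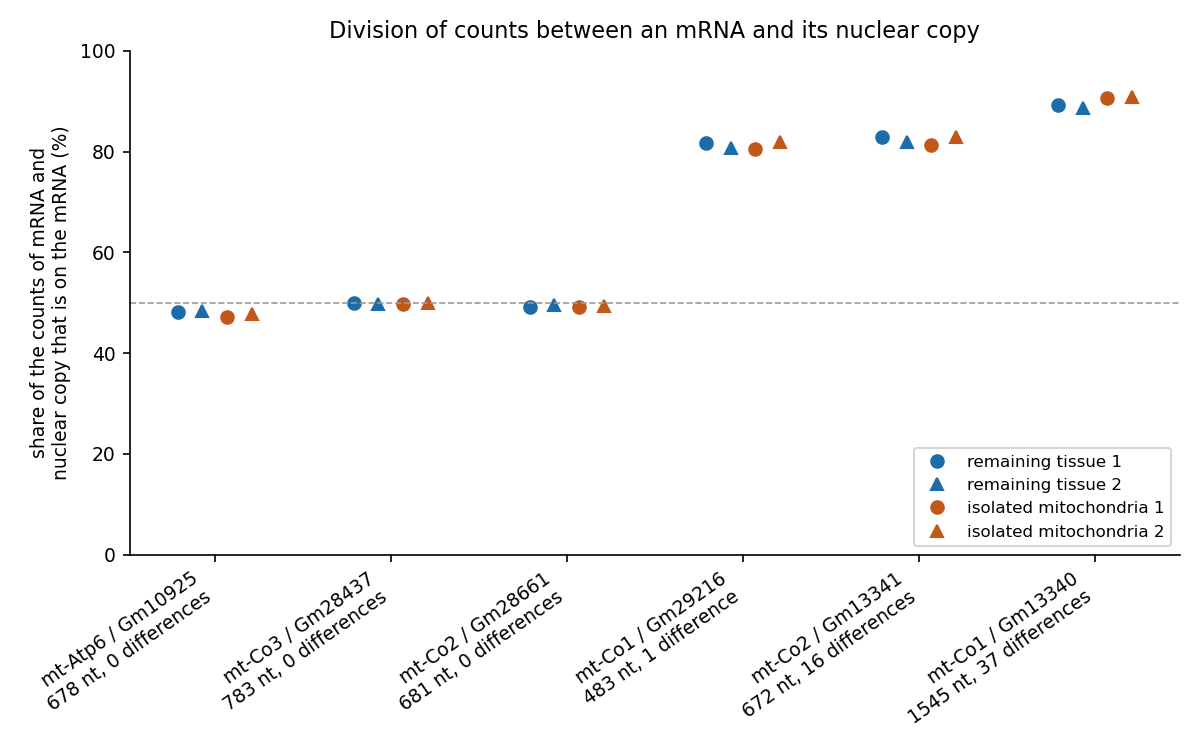
Share of the joint counts of a member and its nuclear copy that is on the mitochondrial mRNA (%), for 6 pairs ordered by the number of base differences, in each of the 4 libraries; the dashed line marks an even division. The 3 identical copies, which span nearly the whole mRNA, lie at 47.2% to 49.9%, and the other copies, of which Gm29216 spans 483 of 1545 nt, at 80.5% to 90.7%. Each pair leaves out counts on any other copy of the same mRNA.

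Levels were compared between members per countable read position, with the copies added and mt-Cytb, which has no copy, set to 1. mt-Atp6 was the highest, at 2.83 and 2.44 in remaining tissue and 2.98 and 2.83 in isolated mitochondria. Its countable positions leave out reads that touch mt-Atp8, whereas reads of Gm10925 that reach into the 233 bases beside it may have been counted. The counts added from Gm10925 may thus come from more positions than were divided by, which was not tested. The levels of mt-Co1, mt-Co2 and mt-Co3 carry the same limit, since their countable positions leave out reads that touch a neighbouring tRNA. mt-Co1 followed with 2.06 and 1.89 against 2.20 and 2.12. mt-Co2 stood at 0.930 and 0.955 against 1.14 and 1.03, and mt-Co3 at 0.862 and 0.863 against 1.07 and 0.954. mt-Atp8 was at 0.614 and 0.710 against 1.20 and 0.738. Only the 43 nt that it shares with mt-Atp6 lie in a copy found here, and no counts were added to it. In remaining tissue the order was mt-Atp6, mt-Co1, mt-Cytb, mt-Co2, mt-Co3 and mt-Atp8, with no overlap of neighbours. The place of mt-Atp8 is not like for like, since counts of the 233 bases of chromosome 1 between Gm10925 and Gm28661 could not be added. In isolated mitochondria the first 2 places were the same and the other 4 members overlapped with their neighbours in the order. Some of this order rests on read length and on the treatment of the copies and of strand. With positions counted for reads of 50 nt, mt-Atp8 was at 0.489 and 0.566 in remaining tissue and 0.955 and 0.588 in isolated mitochondria. At that length mt-Atp8 lay below mt-Cytb in both libraries of isolated mitochondria, without overlap. The order in remaining tissue was the same. Per kilobase and without copies, mt-Co1 was at 1.55 and 1.40 in remaining tissue, above mt-Atp6 at 1.20 and 1.04, while mt-Co2 and mt-Co3 fell to 0.396 to 0.414. With positions counted on the same strand only, mt-Co2 was level with mt-Cytb in remaining tissue (0.990 and 1.02). mt-Co2 and mt-Co3 moved together, with a ratio per position of 1.08 and 1.11 against 1.07 and 1.07.

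**Figure D5:**
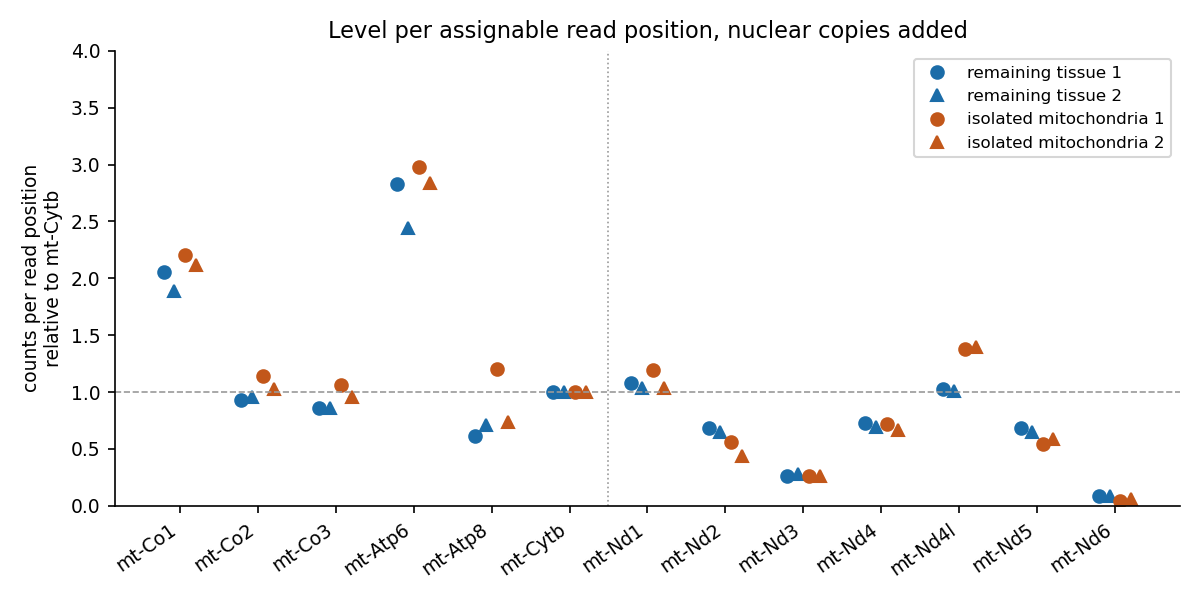
Counts per countable 75-nt read position, nuclear copies added, relative to mt-Cytb (dashed line at 1), for the 6 members and the complex I mRNAs in each of the 4 libraries. mt-Atp6 (2.44 to 2.98) and mt-Co1 (1.89 to 2.20) stand above the other members, which lie between 0.614 and 1.20.

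To see whether the nuclear-encoded partners of the members moved with them, the other subunits of the same complexes were counted. Of 41 nuclear genes for subunits of complexes III, IV and V that were tested with limma, 0 were called higher and 7 lower, beside 7.32% and 9.30% of all genes. The 41 include Atpif1 and Cox7a2l, which are not always counted as subunits and were not called by limma. At an unadjusted p under 0.05 there were 5 higher and 15 lower, beside 15.1% and 21.9% of all genes. edgeR called 4 higher and 9 lower, beside 13.6% and 17.6% of all genes, and DESeq2 called 5 higher and 8 lower, beside 20.3% and 12.7%. All these fits use size factors that follow the median gene, which is nuclear. With libraries scaled to the total of all genes, 0 of the 41 were called higher and 41 lower, beside 38 and 6694 of the 6916 genes. Scaled to the 13 mRNAs, all 9, 15 and 17 tested subunits of complexes III, IV and V were called lower, as were 98.1% of all genes. At complex III, 4 of 9 were lower with a median change of −0.82 over the 9. Uqcrc1, a core subunit, had 634 and 621 normalized counts in remaining tissue and 299 and 263 in isolated mitochondria (−1.16, adjusted p = 0.028). Uqcrfs1, the Rieske iron-sulfur protein, had 349 and 304 against 172 and 197 (adjusted p = 0.067), and Uqcrq 308 and 304 against 262 and 344 (adjusted p = 0.94). At complex IV, 1 of 15 was lower, the muscle form Cox6a2, with 529 and 510 against 136 and 228 (−1.55, adjusted p = 0.045). The median over the 15 was −0.54, and Cox6c (adjusted p = 0.47) and Cox5b (adjusted p = 0.22) did not pass. At complex V, 2 of 17 were lower with a median of −0.40. Atp5b, the catalytic beta subunit, had 1883 and 1773 against 842 and 1027 (−0.97, adjusted p = 0.042), Atp5a1 2118 and 1912 against 932 and 1305 (adjusted p = 0.080) and Atp5c1 511 and 471 against 398 and 218 (adjusted p = 0.21). Of 22 genes for assembly factors and for translation of these complexes 12 were tested and 0 were called by limma. There were 0 higher and 6 lower at an unadjusted p under 0.05, beside the 21.9% of all genes that were lower, and edgeR and DESeq2 each called 3 lower, beside 17.6% and 12.7%. Lrpprc, which stabilises mitochondrial mRNAs, had 187 and 184 against 100 and 71 (−1.13, adjusted p = 0.060). The complex III assembly factors Uqcc1, with 119 and 119 against 54 and 30 (adjusted p = 0.063), and Uqcc2, with 103 and 112 against 27 and 46 (adjusted p = 0.057), did not pass either. The medians of all 4 lists lay near or below that of all genes, −0.44. In reads, these genes were thinly covered in isolated mitochondria, with 33 and 52 reads for Uqcrc1 and 93 and 203 for Atp5b. The count of 7 lower genes fell to 0 without either library of remaining tissue and went to 21 without either library of isolated mitochondria, and after scaling to the total of nuclear genes 4 of the 41 were called higher and 0 lower.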

How the data were processed

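RNA was measured in 2 libraries of isolated mitochondria and 2 of remaining tissue. According to the labels and the methods of the study, 10 ng of total RNA entered a stranded kit. Reads were trimmed with Trimmomatic 0.39, aligned to GRCm38 with STAR and counted over exons with featureCounts. The labels name STAR 2.7.10a, featureCounts 2.0.2 and DESeq2 1.30.1, whereas the methods of the study give other versions of these tools. The authors deposited a signal per gene, the count divided by the size factor of its library and rounded. Whole reads were recovered in isolated mitochondria (9.049 and 5.059 normalized counts per read; 100% of 10508 and 11660 low values within 0.5 of a multiple) and estimated in remaining tissue, where 1 normalized count is about 7.05 reads. Genes with a mean of at least 20 were tested on log2(value + 1) with limma 3.58.1 (eBayes with trend), adjusted by Benjamini-Hochberg at 0.05; edgeR 4.0.16 and DESeq2 1.42.0 on the reads were alternatives, and the fit was tested on simulated data. Shares are of counts on the 13 mRNAs, with 95% Wilson intervals. Copies were sought with BLAST 2.17.0 in GENCODE M21 transcripts (16457 of 16472 identifiers found). Genes named were the 6 members, the complex I mRNAs, the nuclear copies and, of each list of nuclear genes for these complexes, the 3 genes highest in remaining tissue; markers are mostly given by list. The members and lists were chosen with earlier results of these data known. The planned value per position unique in the genome was not run, since no genome sequence was used; positions that touch a single annotated gene, with copies added, took its place.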

Additional observations from a re-analysis of the deposited data

How the results depend on the processing

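All 6 members and the mt-Atp8/mt-Atp6 pair kept their direction and their call in 125 of 126 repeats of the main comparison under other settings; the exception was mt-Co1 with no filter on low values (8.86, adjusted p = 0.068), where 16472 genes are tested. Counts of genes called moved much more. Genes called higher numbered 38 when libraries were scaled to their totals, 930 with scaling to nuclear genes, 283 and 305 with a mean of at least 5 and 100, 940 with edgeR, 1106 with edgeR and TMM, 1403 with DESeq2, and 304 to 1686 when a library was left out. Genes called lower numbered 6694 (total of all genes), 1421 (upper quartile), 189 (nuclear genes), 3026 (no filter), 399 (mean of at least 5), 374 (no trend), 1216 (edgeR) and 159 to 3181 with a library left out. Leaving out a library leaves a lone sample in its group, which is assumed to vary like the other group. Relative to the 13 mRNAs, 80 of 91 repeats kept direction and side of the threshold. mt-Co1 passed with no filter (0.13, adjusted p = 0.023) and ran from 0.090 to 0.16 with a library left out. mt-Atp8 ran from 0.17 to 0.79 with a library left out and mt-Cytb from -0.069 to 0.0095, so that its sign turned (0.0095 without remaining tissue replicate 2 and 0.0068 without isolated mitochondria replicate 1). Scaled to the 37 mitochondrial genes, mt-Co1 was at -0.19, mt-Co2 at -0.15, mt-Co3 at -0.12, mt-Atp6 at -0.22 and the pair at -0.19; the differences in share were then -0.584 points for mt-Co1, -0.0590 for mt-Co2, -0.0558 for mt-Co3, -0.228 for mt-Atp6, -0.212 for the pair and -1.43 for the 6 members. Genes called higher relative to the 13 mRNAs numbered 4 with that scaling, 12 with no filter, where 15938 were lower, and 4 to 18 with a library left out. The difference in share of the pair was 1.85 points per kilobase and 1.95 per countable position with copies, and of the 6 members 3.20 and 2.20. The difference in share of mt-Cytb ran from -0.634 to 0.0896 points with a library left out and was positive at 0.0896 points without remaining tissue replicate 2 and 0.0572 without isolated mitochondria replicate 1. Nuclear subunits of complexes III, IV and V called higher numbered 4 with scaling to nuclear genes, 1 with a mean of at least 100, 4 with edgeR, 5 with TMM, 5 with DESeq2 and 0 to 4 with a library left out; called lower, 41 (total of all genes), 17 (upper quartile), 0 (nuclear genes), 3 (mean of at least 5), 1 (no trend) and 0 to 21 with a library left out. The cause of these shifts was not tested. Replicate numbers are shared by the groups, but only 2 pairs exist and the labels name no shared animal; deviations of same-numbered libraries correlated at 0.141 over 6916 genes, which does not establish a pairing. With the replicate block, 630 genes were called higher and 1144 lower, and mt-Co1 passed relative to the 13 mRNAs (0.13, adjusted p = 0.0098). Rounding in remaining tissue hides differences of about 7.05 reads, which is small beside the counts of the members. Alternatives with copies added, and those of the nuclear subunits, were chosen after the data were seen.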
